A study of Drosophila melanogaster with 2 samples.

Results

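The 1288 peaks described here are the binding peaks of the forkhead protein fd96Cb that lay inside first introns, the stretch between the first and second exon of a transcript. They come from ChIP-seq, the sequencing of DNA recovered with a chromatin protein, here with an anti-GFP antibody from whole Drosophila melanogaster embryos aged 0 to 24 h. The embryos came from a transgenic line that carries fd96Cb fused at its C terminus to green fluorescent protein, and the labels do not name the promoter of the fusion. The 2 samples, biological replicates numbered 2 and 3, share that line, age and treatment and form 1 group. A peak was a member when its summit lay more than 1000 bp from every transcription start site (TSS) of a protein-coding gene, outside all exons of such genes, and inside the first intron of at least 1 of their transcripts. Of the 5743 peaks in the reproducible set, chosen by the irreproducible discovery rate (IDR) procedure, 22.4% met this rule. Another 2511 summits lay at promoters, 1141 were intergenic, 752 lay in later introns only and 51 lay in exons. Whole embryos mix all cell types of all embryonic stages, so strong binding in few cells and weak binding in many cannot be told apart.

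Forkhead proteins bind DNA through a winged-helix domain, and many of them recognise an AT-rich core close to GTAAACA. fd96Cb and its neighbour fd96Ca are a pair of forkhead genes of the fly. First introns are often the longest introns of fly genes, and they commonly hold enhancers, the stretches that regulate a gene's transcription from a distance. The windows searched for sequence patterns were the 101 bases centred on each summit.

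A set of 6 among the strongest members is shown because they give the base composition that recurs across the set. They are the windows of ush at chr2L:481030-481130, CG32772 at chrX:4910311-4910411, Tlk at chrX:3742182-3742282, Gug at chr3L:8458283-8458383, CG9837 at chr3R:8811642-8811742 and Dif at chr2L:17430148-17430248, all in dm6 and on the plus strand. Capitals mark the degenerate forkhead pattern, which is a purine, a pyrimidine, AAA, a pyrimidine and A in turn, on either strand.
ush: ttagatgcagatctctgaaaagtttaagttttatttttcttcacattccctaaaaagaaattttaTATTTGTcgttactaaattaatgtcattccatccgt
CG32772: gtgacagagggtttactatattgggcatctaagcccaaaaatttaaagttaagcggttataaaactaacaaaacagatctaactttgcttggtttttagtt
Tlk: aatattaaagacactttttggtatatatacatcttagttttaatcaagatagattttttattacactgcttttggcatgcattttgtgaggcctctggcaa
Gug: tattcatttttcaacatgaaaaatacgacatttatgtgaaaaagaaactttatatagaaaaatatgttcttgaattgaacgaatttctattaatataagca
CG9837: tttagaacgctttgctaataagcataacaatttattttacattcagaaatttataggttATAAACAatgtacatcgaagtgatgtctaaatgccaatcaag
Dif: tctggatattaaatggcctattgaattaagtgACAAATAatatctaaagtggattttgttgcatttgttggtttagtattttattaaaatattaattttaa
The ush, CG9837 and Dif windows each held the pattern once, and the CG32772, Tlk and Gug windows held none. The windows other than that of Dif were picked by signal value, but not by it alone. Hr3 (2239) and CG12769 (1972), which share a chromosome arm, were stronger than CG9837 (1912) and were passed over. Dif was picked for holding the pattern. The number of these windows with the pattern is therefore partly set by the choice. GC content was 26.7% in the ush window, 32.7% in the CG32772 window and 20.8% in the Gug window.

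The next 3 windows are shown because each holds AAGCTAA or its reverse complement TTAGCTT, in capitals, the word that comes up again below. They lie in first introns of Pak3 at chr3R:16449361-16449461, cno at chr3R:5215466-5215566 and gpp at chr3R:6410580-6410680, dm6, plus strand.
Pak3: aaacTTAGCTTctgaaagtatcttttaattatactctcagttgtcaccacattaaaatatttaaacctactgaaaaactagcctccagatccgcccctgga
cno: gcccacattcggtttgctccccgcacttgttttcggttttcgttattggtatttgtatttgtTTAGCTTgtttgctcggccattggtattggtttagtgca
gpp: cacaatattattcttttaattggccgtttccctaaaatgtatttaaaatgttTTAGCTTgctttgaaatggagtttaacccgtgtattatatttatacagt

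First introns held more of the peaks than later introns did, both per base and relative to weak peaks. Of the 2040 intronic IDR summits, 63.1% lay in first introns (Wilson 95% interval 61.0 to 65.2%), whereas first introns make up 40.5% of the intronic bases that the rule could accept. Among 8786 intronic summits of weak pooled peaks, those that overlap no IDR peak, the share was 54.4% (53.4 to 55.5%). The odds of lying in a first intron were higher for IDR summits by 0.52 on the log2 scale (two-sided Fisher exact test, p = 6.57e-13). IDR peaks numbered 65.4 per Mb of eligible first-intron sequence (exact Poisson 95% interval 61.9 to 69.1, over 19.7 Mb), against 26.0 per Mb of later introns (24.2 to 27.9), 92.6 per Mb near TSSs, 30.1 per Mb of intergenic sequence and 2.52 per Mb of exons. These tests and intervals count peaks from 2 libraries, and peaks are no substitute for replicates.

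The density was highest close to TSSs and was higher in first than in later introns in each band of distance to the nearest TSS. Between 1 and 2 kb, first introns held 96.7 peaks per Mb and later introns 41.2 per Mb. Between 5 and 10 kb the densities were 58.4 per Mb in first introns and 31.6 per Mb in later introns, and beyond 20 kb they were 28.4 per Mb in first introns and 11.2 per Mb in later introns. Weak peaks also lay more densely in first introns, with 299 per Mb in first introns and 178 per Mb in later introns between 1 and 2 kb. Within strata of that distance the log2 odds of IDR against weak summits were 0.41 (exact conditional Mantel-Haenszel test, p = 9.31e-08, an alternative chosen after seeing the data). The bands were not alike in size of difference: the log2 odds were 0.48 at 1 to 2 kb, 0.31 at 10 to 20 kb and 0.04 beyond 20 kb, where 45 first-intron IDR peaks were counted, and a change with distance was not tested.

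**Figure D1:**
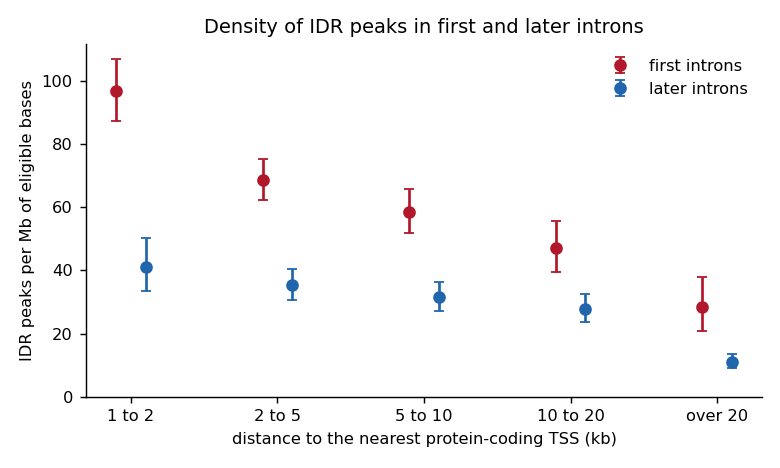
IDR peaks per Mb of eligible sequence (vertical axis) in first introns (red, left of each pair) and later introns (blue), by distance to the nearest protein-coding TSS in kb (horizontal axis); bars are exact Poisson 95% intervals. First introns lie above later introns in every band, with 96.7 against 41.2 peaks per Mb at 1 to 2 kb.

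Within their introns the members lay more often towards the 5′ end than weak first-intron peaks did. This comparison was not repeated within strata of distance to the nearest TSS. Of the 1288 summits, 58.2% fell on the 5′ side of the midpoint of their intron's eligible bases, against 53.5% of the 4781 weak first-intron summits (difference 4.71 percentage points, two-sided Fisher exact test, p = 0.00274). The median summit lay 4955 bp downstream of the TSS of its host transcript, in an intron of median length 11930 bp, and the farthest lay 104067 bp from that TSS. A summit in several first introns was assigned to the shortest of them, and 44 summits lay in first introns of 2 or more genes. For 529 members (41.1%), the position was also part of a later intron of another transcript, a share like the 41.1% of all eligible first-intron bases for which this holds. TSSs of genes that do not code for protein lay within 1000 bp of 43 members (3.34%), against 37 later-intron peaks (4.92%), a difference that did not pass the two-sided Fisher exact test (p = 0.0775). Without replicate 2 it was -2.19 percentage points and passed (exact test, p = 0.02), and with starts counted within 2000 bp it was -0.0603 percentage points (exact test, p = 1).

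By arm, the members per Mb of eligible sequence ran to 74.2 on X, 71.5 on 3L, 64.6 on 2R, 61.9 on 3R and 56.0 on 2L, with a single member on chromosome 4. The X chromosome held 299 members, whose median signal value was 242.4, against 233.9 for the 989 autosomal members. At the edge of the distance rule, the 66 members 1001 to 1100 bp from a TSS had a median signal value of 286.7, and the 63 summits in first introns that lay 901 to 1000 bp from one, and so were left out, had 268.9. In all, 796 summits within first introns were left out for lying near a TSS and 8 for lying in an exon.

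First-intron peaks were of middling strength within the reproducible set. The signal value is the authors' score. Tests used it only to rank peaks, and its medians and sums are given as descriptions. Signal values of members ran to 4096, with a median of 235.5 and a minimum of 128.8. Of the members, 48.1% ranked among the 2871 strongest of the 5743 IDR peaks, against 55.5% of promoter peaks (difference -7.38 percentage points, Fisher exact test, adjusted p = 5.27e-05). The share was 43.5% in later introns (adjusted p = 0.0645) and 44.5% in intergenic sequence (adjusted p = 0.0797), and neither difference passed the exact test. The difference from promoter peaks was -4.25 percentage points without replicate 2 and -12.4 without replicate 3. The difference from intergenic peaks was 7.09 percentage points without replicate 3, where it passed (Fisher exact test, adjusted p = 7.00e-04). Members 1 to 2 kb from a TSS had a median signal value of 251.9, members at 10 to 20 kb had 199.2 and the 45 members beyond 20 kb had 247.4.

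Both replicates listed nearly all members. Members come from a set chosen for being reproducible, so listing in both replicates was largely set by that choice. Of 1288, 1205 (93.6%) had a summit within 100 bp in the full lists of both replicates, and 2 had one in neither. The next counts use as many strongest peaks of each replicate as the IDR set holds. Among these, 1068 members (82.9%) were found in replicate 2, 1143 (88.7%) in replicate 3, 939 (72.9%) in both and 16 in neither. Of later-intron peaks, 83.1% were found in replicate 2 and 87.4% in replicate 3. The 72.9% of members strong in both replicates compares with 72.3% of later-intron peaks (adjusted p = 0.797), 71.5% of intergenic peaks (adjusted p = 0.701) and 77.6% of promoter peaks (adjusted p = 0.00453, Fisher exact tests). The promoter difference was -4.71 percentage points. With summits counted as shared within 50 bp it was -3.58 percentage points (adjusted p = 0.0929), and among the 2871 strongest IDR peaks it turned to 0.576 percentage points (adjusted p = 0.571, both Fisher exact tests). The share of the same IDR peaks that was strong in a single replicate is a different measure. It differed from promoter peaks by -1.10 percentage points in replicate 3 and by -2.86 in replicate 2. Neither of these differences passed the Fisher exact test. Spearman's rank correlation between the members' signal values in the 2 replicates was 0.739, a description over peaks that share both libraries and were chosen for being reproducible.

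**Figure D2:**
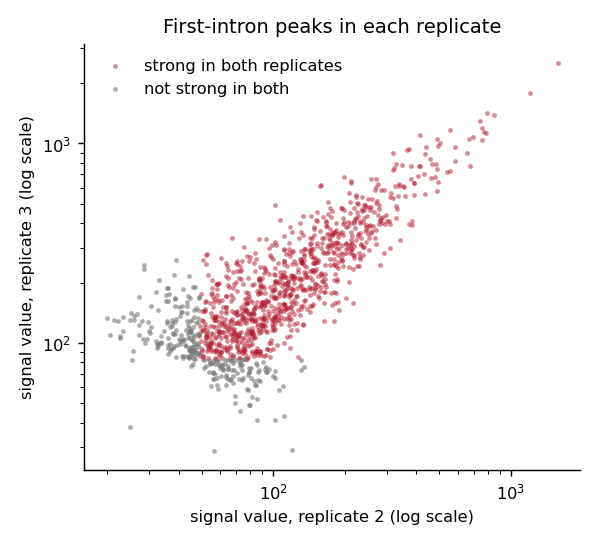
Signal value of each member in replicate 2 (horizontal axis, log scale) and replicate 3 (vertical axis, log scale), for the 1205 members listed in both; red points are strong in both replicates, grey points are not. The strongest member, in ush, stands at 1578 in replicate 2 and 2521 in replicate 3.

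The strongest member lay in ush, which encodes U-shaped, a zinc-finger cofactor of GATA factors. Its signal value was 4096, rank 5 of the IDR set, with 1578 in replicate 2 (rank 6) and 2521 in replicate 3 (rank 4). It lay 4860 bp downstream of its host TSS, and its interval was chr2L:480576-481317. The next was in CG32772, with 2988, where replicate 2 had 1206 and replicate 3 had 1785. Both peaks thus ranked among the 17 strongest of 30000 in each replicate. The third was in Hr3, an ecdysone-induced nuclear receptor, with 2239, and its summit lay in the first introns of 2 genes. Tlk, the Tousled-like kinase, had a member of 2207, and Gug, an Atrophin co-repressor, one of 2038. Of the 15 strongest members, others lay in genes of transcription factors (NFAT 1908, the Rel family factor Dif 1775, the nuclear receptor Hr4 1520), chromatin regulators (trx, a histone methyltransferase, 1726; simj, a NuRD subunit, 1546), the secreted EGF receptor inhibitor aos (1733) and the triglyceride lipase bmm (1534). The remaining 3 were in CG12769 (1972), CG9837 (1912) and CG3726 (1773). The least balanced of the 15 was Hr4, at 413.3 in replicate 2 (rank 251) and 1104 in replicate 3 (rank 79).

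Members gathered in long first introns, and a minority of genes held most of them. Of 3683 protein-coding genes with eligible first-intron sequence, 653 hosted a member (17.7%), or 11.1% with only the 2871 strongest IDR peaks. Where the eligible sequence exceeded 5 kb, 454 of 1022 did (44.4%). The share was 2.01% of genes with up to 1 kb, 15.7% at 1 to 5 kb, 34.0% at 5 to 10 kb, 46.1% at 10 to 20 kb and 59.8% beyond 20 kb. Members per Mb, in contrast, stood between 69.3 and 77.4 in the bins up to 20 kb and at 51.7 beyond it. One member was found in 376 genes, 2 in 127 and 3 or more in 150, and these 150 genes held 658 members. Neighbouring members in the same gene lay a median of 3009 bp apart, and 33 of 635 gaps (5.20%) were 500 bp or less. An IDR peak stood at a promoter of 48.5% of the host genes, against 27.6% of the other 3030 genes. This gap was present in each length bin, for example 49.7% of hosts and 20.4% of others beyond 20 kb, and it was not tested.

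Several members per gene were found most often in sbb, which encodes the transcriptional regulator Scribbler and held 13. Their signal values ran to 1308 with a median of 371.4, and 12 of the 13 were strong in both replicates. All 13 positions were also in a later intron of another protein-coding transcript. ush held 10, at 322.2, 327.6, 153.4, 134.2, 215.1, 135.0, 587.6, 691.8 and 717.2 beside the leading 4096, so the leading value exceeded the sum of the others. The members of CHES-1-like, itself a forkhead family gene, numbered 8 in 12.6 kb of eligible sequence, 6.35 per 10 kb. That was the densest of the 10 genes with most members. Their highest signal values were 1272 (556.3 in replicate 2 and 725.6 in replicate 3) and 1140 (493.6 in replicate 2 and 643.0 in replicate 3). Tlk had 8, with a median of 524.2. Another 7 genes held 8 members each, RapGAP1 among them, which had the lowest summed signal value of the genes with 8 and so fell outside the 10 described. The 6 within were shn (a zinc-finger protein of the Dpp pathway), Snoo (a Smad-binding co-repressor), tna, CG42238, mew (an integrin alpha subunit) and CG43658. Their strongest members had signal values between 337.0 in CG43658 and 851.4 in shn.

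**Figure D3:**
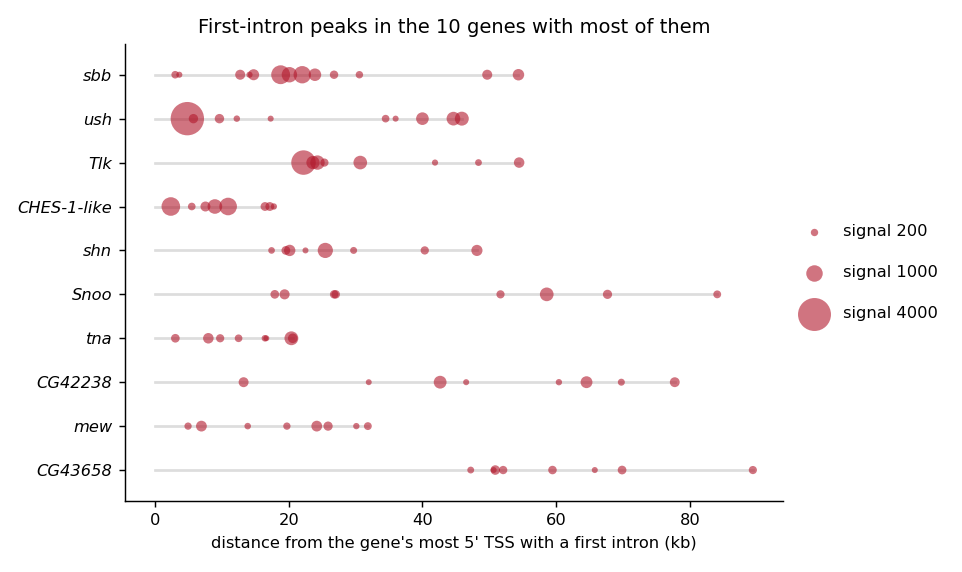
Members in the 10 genes with most of them, ties at 8 members broken by summed signal value (RapGAP1, also with 8, is not drawn), placed by the distance of the summit from the gene's most 5′ TSS that has a first intron (horizontal axis, kb); the area of each circle is proportional to the signal value. The member of ush with a signal value of 4096 is the largest circle, and the 8 members of CHES-1-like lie within 17.8 kb of that TSS.

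fd96Cb and fd96Ca have no first intron in the annotation and so could hold no member. Of the 9 forkhead family genes with eligible sequence, 3 hosted members (33.3%, against 17.7% of all eligible genes). They were CHES-1-like with 8, jumu with 3 and foxo with 1. The 9 genes held 359 members per Mb, against 65.4 over all first introns, mostly through CHES-1-like. All 3 of the forkhead genes with over 5 kb of eligible sequence were hosts, against 44.4% of all such genes. These few genes were not tested. The jumu members ran to 545.7, while the foxo member, at 165.7, had no summit within 100 bp in the list of either replicate.

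Host genes in the pathway lists are given as counts, to be read against 17.7% of all eligible genes and 44.4% of those over 5 kb. The EGF receptor pathway had 9 hosts among 16 eligible genes, and 8 of its 8 genes over 5 kb. These 9 were the receptor Egfr, the ligand vn, the ligand-processing factor S, the inhibitors aos and sty, and the transcriptional effectors pnt, aop, cic and edl. In S, 5 members ran to 1017 (390.6 in replicate 2 and 633.0 in replicate 3), and the stronger of the 2 edl members had 1395 (439.3 in replicate 2 and 959.5 in replicate 3). The Dpp pathway had 7 hosts of 11, and 5 of 6 over 5 kb. The 7 were the ligand dpp, its antagonist sog, the receptors tkv, put and wit, the transducer Mad and shn. The strongest members there had signal values of 851.4 in shn, 604.8 in sog and 534.9 in dpp. Members per Mb of eligible sequence were 174 in the EGF receptor list and 169 in the Dpp list. Over all first introns there were 65.4 per Mb.

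In the Wnt and Hedgehog list, 7 of 17 were hosts, and 7 of 11 over 5 kb, with the receptor fz at 1210, the inhibitor nkd at 780.2 and the glypican dlp at 582.3. The ecdysone cascade had 8 hosts of 15, and 8 of 12 over 5 kb, led by Hr3 and Hr4 with 6 members each and followed by the early genes Eip74EF (709.8) and Eip75B (658.8). Hox genes and cofactors had 6 of 12, and 6 of 7 over 5 kb, with Abd-B at 623.6 and Antp, with 5 members, at 502.3. Their first introns held 61.3 members per Mb, against 65.4 per Mb over all first introns. Tracheal and epithelial genes had 8 of 16, and 8 of 8 over 5 kb, with the hypoxia-response factor sima at 883.1 and the epidermal factor grh at 766.5. Notch pathway genes had 4 of 13, and 3 of 5 over 5 kb, led by the ubiquitin ligase neur at 613.3. Chromatin regulators had 4 of 10, and 2 of 2 over 5 kb, with Trl, which encodes the GAGA factor, at 661.1 beside trx. Members per Mb were 123 in the Wnt and Hedgehog list, 89.1 in the ecdysone cascade and 81.2 in tracheal and epithelial genes. Notch pathway genes held 108 per Mb and chromatin regulators 160 per Mb.

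Neural transcription factors had 5 hosts of 35, and 4 of 18 over 5 kb (22.2%), below both background figures. Ion channels and neuronal signalling had 6 of 22, and 4 of 12 over 5 kb (33.3%). Cell adhesion and synaptic recognition had 9 of 26, and 9 of 21 over 5 kb (42.9%), with a median of 20.1 kb of eligible sequence per gene. Axon guidance genes had 7 of 21, and 6 of 11 over 5 kb (54.5%), with fra, a netrin receptor, at 927.4 and the ligand NetA at 771.8. Muscle and mesoderm genes had 6 of 20, and 6 of 6 over 5 kb, with mbc, a factor of myoblast fusion, at 972.9. A single ribosomal protein gene had eligible sequence, and it held none. Members per Mb were 40.5 in neural transcription factors, 27.1 in ion channels and neuronal signalling and 31.0 in cell adhesion and synaptic recognition. These lay below the 65.4 per Mb over all first introns. Axon guidance genes held 105 per Mb and muscle and mesoderm genes 147 per Mb. No test was run on the lists, and their lengths of eligible sequence differ.

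Members were centred on AT-rich dips between shoulders that were richer in GC than first introns as a whole. Mean GC reached 46.1% in the bin 270 bp to the left of the summit and 44.9% at 190 bp to its right, on the plus strand. GC content within 50 bp of the summit was 30.2% ± 6.76, against 42.0% ± 9.05 in windows 500 bp farther towards the 3′ end of the host gene (SD over 1288 peaks). It was lower than the flank at 1101 members and higher at 167 (exact two-sided sign test, p = 5.50e-169). Flank windows were not held inside the intron, and some lay past its end. All eligible first-intron bases together were 40.3% GC, and 14.1% of 192227 windows tiled over them were at or below the members' mean. Weak first-intron peaks had 39.2% ± 9.31 at their summits (SD), a shallower dip. Later-intron IDR peaks had 30.3% ± 6.86, and the share of summits below the median of all IDR peaks, 48.1% in first and 46.8% in later introns, did not differ beyond counting error (Fisher exact test, p = 0.581).

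**Figure D4:**
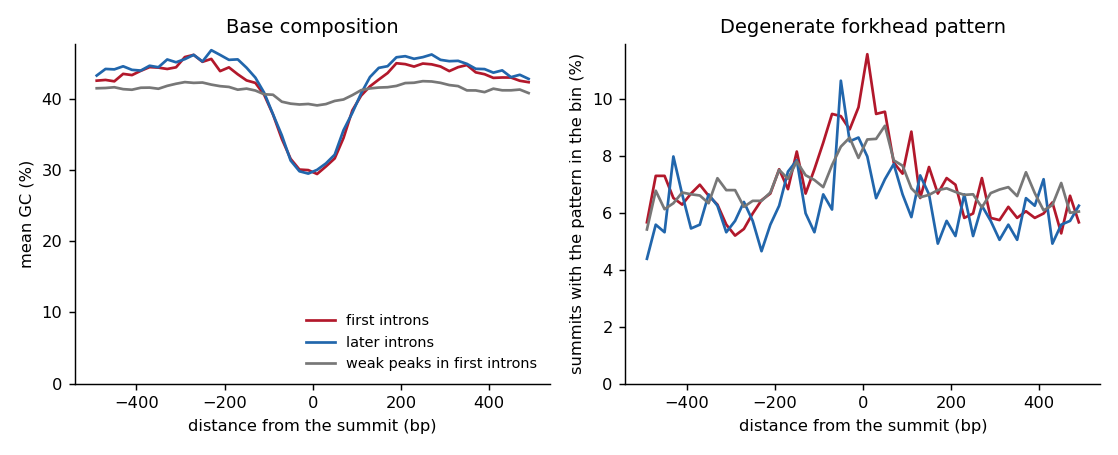
Mean GC content (left, %) and share of summits with the degenerate forkhead pattern (right, %) in 20 bp bins by distance from the summit (bp), for first-intron IDR peaks (red), later-intron IDR peaks (blue) and weak first-intron peaks (grey). GC reaches 29.4% beside the summit of first-intron peaks, against 39.0% for weak first-intron peaks in the same bin.

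Of 19 patterns searched on both strands, 11 (57.9%) differed between the members' summits and flanks. The degenerate forkhead pattern was found at 36.9% of summits and 27.3% of flanks (9.55 percentage points, exact McNemar test, adjusted p = 7.02e-07), and 27.1% of the tiled windows held it. The strict core GTAAACA, a case of the degenerate pattern, was found at 3.49% of summits, 1.86% of flanks and 2.24% of tiled windows (McNemar exact test, adjusted p = 0.0267), and this call was lost under 6 of the alternative settings tried. The GATA pattern (GATA with A or T before it and a purine after it) was at 27.0% of summits and 17.3% of flanks (exact test, adjusted p = 6.03e-09), and 17.4% of tiled windows. The homeodomain core TAATTA was at 13.1% of summits and 6.44% of flanks (exact test, adjusted p = 7.31e-08), and 7.83% of tiled windows. The Tramtrack pattern AGGATAA, at 12 summits and 2 flanks (exact test, adjusted p = 0.0246), lost its call under 9 alternatives. It was at 0.932% of summits, 0.155% of flanks and 0.988% of tiled windows, so the summits did not stand above the tiled windows. With the flank at 300 or 1000 bp, or among the 2871 strongest IDR peaks, 3 patterns were higher at summits in place of these 5.

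A further 6 patterns were less frequent at summits than at flanks. They were the second forkhead site type GACGC (3.03% of summits, 9.16% of flanks and 6.85% of tiled windows), the Pho core GCCAT (11.9%, 20.3% and 20.5%), GAGAG of the GAGA factor (7.22%, 13.4% and 11.3%), CACACACA (0.621%, 4.35% and 2.74%), and the E-boxes CAGCTG (1.86%, 4.43% and 3.78%) and CAGGTG (1.16%, 3.18% and 3.01%), with adjusted p between 2.08e-09 and 0.00113. The other 8 patterns did not pass. They were the Zelda word CAGGTAG, whose first letters are also those of the E-box just named, the Sox word AACAATG, the POU word ATGCAAAT, the M1BP word GGTCACACT, the E-box CAGATG with, counted under the same name, the form CATATG, a run of AAAAAAAA, the alternating repeat ATATATAT and the DREF word TATCGATA. The last was at 0 of 1288 summits, which allows a share of up to 0.233%.

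Against weak first-intron peaks within strata of 5 points of GC, 0 of 19 patterns passed (exact conditional Mantel-Haenszel test), and 3 had an unadjusted p under 0.05. The degenerate forkhead pattern was at 32.3% of weak summits, and its log2 odds in strata were -0.16 (exact test, adjusted p = 0.401). Without the strata 4 patterns were higher and 6 lower at the members, forkhead included with 0.29 (exact test, adjusted p = 0.00458). GC content thus moved with these shares, and its part in the difference between summits and flanks was not tested. Against later-intron IDR peaks, 0 of 19 patterns passed (Fisher exact tests), and 2 had an unadjusted p under 0.05. The forkhead pattern was at 36.9% of first-intron and 31.4% of later-intron summits (log2 odds 0.35, exact test, adjusted p = 0.234). Among members that lie in no later intron of any transcript, the pattern was at 39.4% of summits. The log2 odds there were 0.51 (Fisher exact test, adjusted p = 0.0236). With the peaks of replicate 3 alone they were 0.43 and passed, and with those of replicate 2 alone they were 0.42 and did not. The other alternatives tried did not pass either. Among them were GC strata (0.37, exact conditional Mantel-Haenszel test, adjusted p = 0.1945) and the 2871 strongest IDR peaks (0.57, Fisher exact test, adjusted p = 0.1306).

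**Figure D5:**
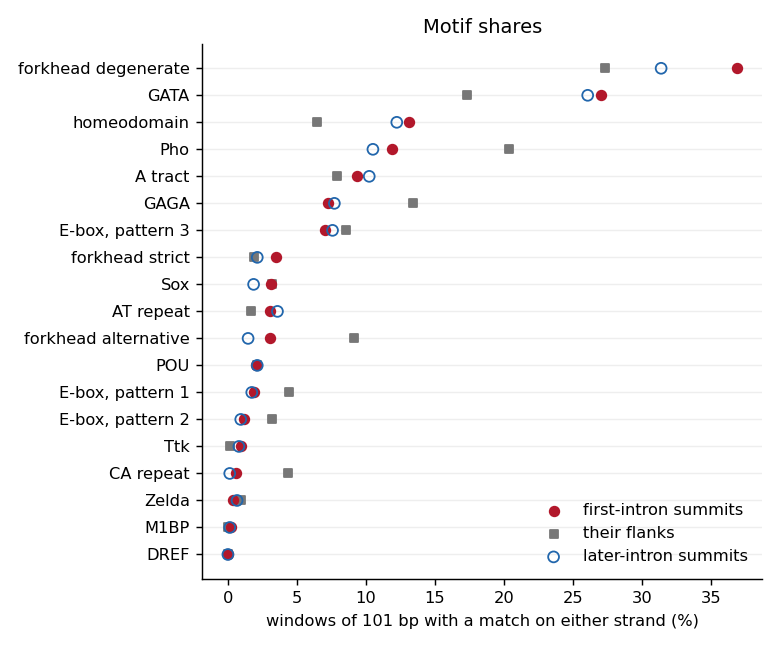
Share of 101 bp windows with each pattern on either strand (horizontal axis, %) at first-intron summits (red circles), at their flanks (grey squares) and at later-intron summits (open blue circles). The E-box patterns 1, 2 and 3 are those the text gives in that order. The degenerate forkhead pattern leads with 36.9% of first-intron summits, 27.3% of flanks and 31.4% of later-intron summits.

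In a search chosen after seeing the data, 9478 words of 6 and 7 letters were compared between members and weak first-intron peaks in the same GC strata, and 1 (0.0106%) passed. AAGCTAA, shown above in Pak3, cno and gpp, was within 50 bp of 65 members (5.05%) and 81 weak summits (1.69%), with odds 2.50 times as high (exact test, adjusted p = 0.00735 over all words). It was at 20 flanks (1.55%), 26 later-intron summits (3.46%) and 1.78% of the tiled windows. The call was lost with either replicate's peaks alone: without replicate 2 the odds were 1.92 times as high (exact test, adjusted p = 0.386), and without replicate 3 they were 1.69 times as high (adjusted p = 0.586). Between first and later introns, 0 of 4436 words passed, and 201 had an unadjusted p under 0.05.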

How the data were processed

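Peak lists of 2 ChIP-seq replicates, of both pooled and of the optimal IDR set were analysed, in dm6 coordinates per the labels. The authors deposited for each peak an interval, a summit, a signal value (a score) and a −log10 q-value, which was not used. Tests used the signal value only as a rank, and its medians and sums are descriptions. Per the labels, sonicated fragments were 200 to 800 bp. For aligner, peak caller and IDR cutoff: not given in the sources used here. Depth is unknown, and no control library was analysed here. Summits were placed with Ensembl release 115 (13945 protein-coding genes, 19252 distinct TSSs) and Release 6 sequence; 1 member's summit was moved to its interval's edge. Weak peaks are the 23562 pooled peaks that overlap no IDR peak, and 30000 peaks made up each full list. Flank windows lay 500 bp from the summit and were not held inside the intron or off exons. Tests were two-sided; Benjamini-Hochberg adjustment ran over 3 classes, 19 patterns or all words found at 20 or more summits. Intervals and p-values cover counting only. Members, lists (383 of 396 entries matched by symbol) and patterns were chosen with earlier results of these data known. Named genes are hosts of the 15 strongest members, the 10 with most members (ties by summed signal), up to 4 hosts per list with the strongest members, fd96Cb and fd96Ca. Other list hosts are named to complete counts, and 1 list is not reported here. The functions were tested on simulated data. Alternatives covered the peak set, TSS distance, flank, window, strata, transcripts and each replicate alone. Exact tests used scipy 1.17.1 in Python 3.11.15; tables used pandas 2.3.3 on numpy 2.4.6, and plots matplotlib 3.10.9.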

Additional observations from a re-analysis of the deposited data

How the results depend on the processing

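No paired comparison of samples was possible because the 2 samples form a single group. The higher share of IDR than weak summits in first introns, their 5′ position, the lower GC at summits and the lower signal rank than promoter peaks kept their direction and their side of the threshold in every alternative run, with log2 odds for location between 0.41 and 0.67. The share of host genes was 21.7% with a TSS distance of 2000 bp, 14.1% with 500 bp, 15.2% in no later intron of any transcript and 11.1% among the 2871 strongest IDR peaks. For signal rank, a TSS distance of 500 bp gave 5.53 percentage points over intergenic and 6.28 over later-intron peaks, and overlapping peaks kept once gave 4.99 over later introns; all 3 passed. Leaving out a replicate gave 2.16 to 7.09 points over intergenic peaks, and the value without replicate 3 passed. For presence in both replicates, a 50 bp limit gave -0.964 points against later introns and -3.58 against promoters, and the strongest 2871 peaks gave 0.576 against promoters. For the same IDR peaks, presence among the strongest peaks of a single replicate is a different measure. Its differences were -0.390 to 2.11 points against intergenic peaks, -0.192 to 1.38 against later introns and -2.86 to -1.10 against promoters. With 1 replicate left out, the GC share below the median differed by -0.781 to 2.37 points between first and later introns. Non-coding starts then differed by -2.19 to -1.47 points, which passed without replicate 2.

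Motifs higher at summits than flanks numbered 3, against 5, with the flank at 1000 bp, at 300 bp or among the 2871 strongest peaks. Against later introns, 1 was higher in no later intron of any transcript, and 0 to 1 with a replicate left out. Against weak peaks, 4 were higher and 6 lower without GC strata, 1 was lower with strata of 2 points and 1 among the 2871 strongest, and 0 to 2 were lower with a replicate left out. The log2 odds of the degenerate forkhead pattern against weak peaks turned to 0.019 in no later intron of any transcript and 0.29 without strata, and were -0.20 to 0.0099 with a replicate left out. For GTAAACA they turned to 0.095 with a TSS distance of 2000 bp and were -0.20 to 0.13 with a replicate left out. Words higher than at weak peaks numbered 0 to 2 with a replicate left out. The 2, found without replicate 2, were ACAGTAA and ACAGTA, and AAGCTAA passed in neither run. The cause of these changes was not tested. Unknown depth and 2 libraries limit every comparison.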
